A study of Mus musculus with 31 samples.

Results

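Ribosome-protected fragments (RPFs), the stretches of mRNA that a translating ribosome shields from nuclease, were compared gene by gene with the total RNA of the same cells to give a translation efficiency (TE) for S51 squamous cell carcinoma (SCC) cells at steady state. The S51 cells came from a mouse skin SCC line (genotype label HRasG12V; TgfbrII fl/fl, while the study's list of cell lines gives TgfbrII as deleted) in which the endogenous alleles of Eif2s1, the gene of the initiation factor eIF2α, had been ablated and replaced by a myc-tagged wild-type Eif2s1 transgene driven by a PGK promoter from a lentivirus. These cells can phosphorylate eIF2α at S51 and are competent for the integrated stress response (ISR), whereas the matched S51A cells carry a transgene that cannot be phosphorylated and are ISR-null. Lines were grown from single cells of a clonal parent, and the labels do not say which clone is in which library. All libraries used here were from vehicle (DMSO) cultures treated for 4.5 h by the labels, where the study's text gives 4 h. Cultures given bortezomib, a proteasome inhibitor, were not used. For S51 vehicle there were 3 RPF and 4 total RNA libraries, and S51A vehicle, used for comparison, had 4 of each. The labels do not say that replicates came from separate cultures, so that p-values measure the spread between these libraries, which may be technical.

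Members were all genes with at least 10 counts in every one of the 7 S51 vehicle libraries, which held for 8551 of the 20703 genes present in both tables. TE was the log2 RPF level minus the log2 total RNA level in CPM (counts scaled to library size), with library sizes adjusted by TMM (a trimmed mean that sets the bulk of genes to a ratio near 1), so that 0 marks a gene whose share of footprints equals its share of RNA. A gene was called high or low in TE where edgeR's quasi-likelihood test gave an adjusted p below 0.05 over all 8551 genes and the ratio was above 2-fold. TE is relative: a change in translation shared by every mRNA does not appear in it. RPFs were counted in coding sequences alone, while the feature counted for total RNA is not stated. If whole transcripts were counted, a long untranslated region adds reads to total RNA only. For that case TE per length was also computed, with RPF per counted coding base and total RNA per base of the annotated transcript, recentred on its median. If total RNA was counted in coding sequences alone, values per length overcorrect for untranslated regions. Errors of a TE are standard errors from the spread over 3 RPF and 4 total RNA libraries.

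Translation of most mRNAs begins when the cap-binding complex eIF4F and the eIF2 ternary complex bring a ribosome to the 5′ end, from which it scans to a start codon. Several mRNAs are known to carry brakes on this step. Iron-regulatory proteins bind a hairpin, the iron-responsive element (IRE), near the cap of ferritin mRNAs, short upstream open reading frames (uORFs) catch scanning ribosomes in mRNAs of the ISR and of polyamine synthesis, and a run of pyrimidines right at the cap (a 5′ terminal oligopyrimidine, or TOP, start) ties the mRNAs of ribosomal proteins to mTOR signaling. In keratinocytes and their carcinomas, keratins, actin and the elongation factors are among the most abundant products.

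Sequences of these kinds were read from the mouse genome (build GRCm38.p6, the reference equivalent of mm10, RefSeq transcripts). The first set shows IRE hairpins in 5′ UTRs, with the loop CAGTGN in capitals. Ftl1 and Fth1 encode the ferritin chains.
Ftl1 IRE (chr7:45459778-45459807, minus strand): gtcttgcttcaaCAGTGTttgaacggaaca
Fth1 IRE (chr19:9982732-9982761, plus strand): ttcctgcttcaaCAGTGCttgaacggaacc

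The next set shows short uORFs in the 5′ UTRs of mRNAs described below, with their start and stop codons in capitals. Frames are numbered by the order of upstream AUGs in the annotated transcript, and longer frames, such as the third of Atf4 (180 bases), are not shown. Which of these frames restrain translation was not tested. Ribosomes on these frames do not enter the RPF counts, which were restricted to annotated coding sequences.
Amd1 uORF (chr10:40302155-40302175, minus strand): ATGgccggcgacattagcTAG
Odc1 first uORF (chr12:17544921-17544947, plus strand): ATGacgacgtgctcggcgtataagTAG
Azin1 second uORF (chr15:38514482-38514505, minus strand): ATGatagggggttccatctccTAA
Atf4 second uORF (chr15:80255582-80255593, plus strand): ATGgcgtatTAG
Ppp1r15b first uORF (chr1:133131245-133131253, plus strand): ATGacgTGA
Ppp1r15b second uORF (chr1:133131468-133131494, plus strand): ATGgtggagcgatctcacacggccTAG

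The last set shows annotated transcript starts, with the unbroken run of pyrimidines from the first base in capitals. The annotated starts of Rps12, Eef2 and Tpt1 begin with a purine and that of Eef1a1 with T, and they are not shown. Rpl30 and Rps6 are ribosomal proteins, Pabpc1 is the poly(A)-binding protein and Actb, β-actin, stands for an mRNA without such a run.
Rpl30 start (chr15:34443202-34443225, minus strand): CTTCCTTTCTCgctccccggccat
Rps6 start (chr4:86857344-86857367, minus strand): CTCTTTTTCgtgacgcctcccagg
Pabpc1 start (chr15:36608950-36608973, minus strand): CCCCTTCTCCCCggcggttagtgc
Actb start (chr5:142906731-142906754, minus strand): Tataaaacccggcggcgcaacgcg

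The RPF libraries held 2795399, 2036482 and 3995041 counts and the total RNA libraries between 18993181 and 22994713, so that RPF depth limited the precision of TE. RPF replicate 2 stood apart from the other two. Across genes its log2 CPM had a Pearson r of 0.949 and 0.940 with RPF replicates 1 and 3, which had 0.988 with each other, while total RNA pairs had at least 0.996. Its deviations from the gene means ran with the GC content of the coding sequence (Spearman rho 0.82 over 8543 genes). RPF replicates 1 and 3 had -0.61 and -0.75, signs that are partly forced because the deviations of each gene cancel over the RPF libraries. Taken singly, TE from RPF replicate 2 had a rho of 0.62 with GC content, and TE from RPF replicates 1 and 3 had 0.35 and 0.30. Values without RPF replicate 2 are therefore given beside results that it moved. The labelled cell type held: all 10 squamous markers passed the count minimum, with summed levels of 13277 to 13869 CPM in total RNA and 28973 to 34699.6 CPM in RPF. Of 12 markers of immune, endothelial, stromal, pigment and muscle cells, Cd68 alone passed (3.29 to 4.05 CPM in total RNA), the summed level was 7.54 to 8.94 CPM in total RNA and 11.99 to 18.6 CPM in RPF, and Cd3e, Col1a2 and Rgs5 were at 0 in every S51 vehicle total RNA library.

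TE was widely spread. Of the 8551 genes, 1261 (14.7%) were high and 1467 (17.2%) were low, and 5823 (68.1%) were not called. The median was -0.03, the quartiles were -0.71 and 0.64, and the 5th and 95th percentiles (-1.78 and 1.6) lay 10.4-fold apart. By adjusted p alone 6363 genes (74.4%) differed from 0 at a median standard error of 0.16, and in 6418 genes (75.1%) the RPF and total RNA libraries did not overlap, with RPF above in 36.1% and below in 38.9%. Scaled by library size without TMM, the median moved to -0.16 and the calls split into 1000 high and 1752 low. Across genes RPF and total RNA levels had a Pearson r of 0.81 and a Spearman rho of 0.79, where genes are not independent replicates.

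**Figure D1:**
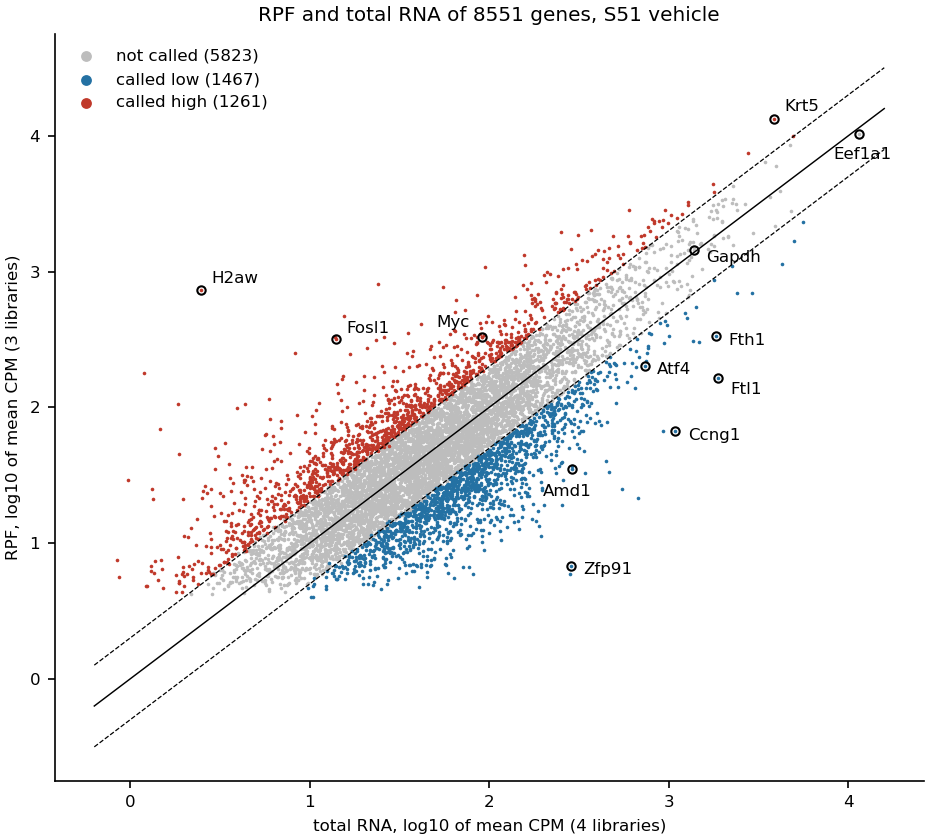
Each point is 1 of 8551 genes, with the log10 of its mean total RNA CPM over 4 libraries on the horizontal axis and the log10 of its mean RPF CPM over 3 libraries on the vertical axis; the solid line marks equal shares and the dashed lines 2-fold either way. Genes called high (1261, red) and low (1467, blue) flank the 5823 not called, with Krt5 and Eef1a1 at the abundant end, the ferritins Ftl1 and Fth1 well below the line and H2aw far above it.

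The count minimum shaped who could be measured. A further 2177 genes had at least 10 counts in each total RNA library but fewer in an RPF library, 169 of them with no footprint in any of the 3. Most were scarce, with a median of 3.45 CPM in total RNA against 46.7 CPM for members, but 48 lay at or above that member median. An upstream AUG was annotated in 58.2% of the genes lost this way and in 45.6% of members. The most abundant was Rpl13a, a large subunit ribosomal protein, at a mean of 1859 CPM in total RNA and no footprint counted in the 3 libraries (a count of 0 allows up to 3). This count need not mean an absence of ribosomes, since the counts hold uniquely mapped reads. Of the 28-base windows in the coding exons of Rpl13a 22.8% occurred once in the genome, against 98.995% of its 100-base exon windows. The part of shared sequence in its missing footprints was not tested. Among genes of the ISR, Ppp1r15a, the stress-induced phosphatase subunit that reverses eIF2α phosphorylation, had 7, 4 and 8 RPF counts against 485, 398, 426 and 421 counts of total RNA, and so was not a member. In the opposite direction, 25 genes had at least 10 RPF counts throughout but too little total RNA. They included Ilk, the integrin-linked kinase, with 402, 332 and 653 RPF counts and 4 to 9 counts of total RNA, and Neil2, a DNA glycosylase, with 789 to 2650 RPF counts and at most 3 of total RNA. Values near the minimum were themselves shifted, since 100 members whose lowest count was exactly 10 had a median TE of -0.54. A further 144 genes with a lowest count of 9 lay just outside. Members scarce in total RNA were shifted the other way, with a rho of -0.28 between total RNA level and TE. The quintile with the least total RNA (0.85 to 17.1 CPM) had a median TE of 0.51. In it 29.7% were high and 2.22% low, against 14.7% and 17.2% of all members. A scarce mRNA became a member only with enough footprints, and the part of the minimum in this shift was not tested.

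Ferritin mRNAs carried few footprints for their abundance. Ftl1 (chr7:45457944-45459886), the ferritin light chain, stood at 146, 231 and 119 CPM in RPF and 1915, 1915, 1946 and 1738 CPM in total RNA. Its TE was -3.52 ± 0.28, 11.5-fold below its share of RNA (quasi-likelihood test in edgeR, adjusted by Benjamini-Hochberg, adjusted p = 1.06e-06). Fth1 (chr19:9982646-9985111), the heavy chain, stood at 364, 294 and 343 CPM in RPF and 1715 to 1886 CPM in total RNA, a TE of -2.45 ± 0.10 (adjusted p = 1.61e-07). In both genes every RPF library lay below every total RNA library, and per length the values were -3.61 and -2.58. Both mRNAs hold the IRE loop shown above in the 5′ UTR. Tfrc, the transferrin receptor, and Slc11a2, an iron transporter, carry IREs in the 3′ UTR and had TEs of -0.07 ± 0.40 (adjusted p = 0.816) and 0.03 ± 0.05. Thus 5 of 8 listed IRE mRNAs passed the count minimum, and 2 were low (40%) and none high, against 17.2% and 14.7% of all members. Sequence identity to other loci limits the ferritins, since 12.6% of the 28-base windows in the coding exons of Ftl1 and 74.8% of those of Fth1 occurred once in the genome, against 58.5% and 100% of 100-base exon windows, and its part in these values was not tested.

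mRNAs of the polyamine pathway had the lowest median of any list by CPM, and per length centrosome components lay lower. Polyamines are small cations made from ornithine and needed for growth, and their synthesis is known to be held by uORFs that respond to polyamine levels. All 9 listed genes passed, with a median of -1.40 against -0.03 over all genes (-1.12 per length, and -1.15 without RPF replicate 2). Of these 6 were low (66.7%) and 1 was high (11.1%), against 17.2% and 14.7% of all members. Amd1, the decarboxylase that supplies the aminopropyl group, stood at 29.2, 25.8 and 50.99 CPM in RPF and 278 to 296 CPM in total RNA, a TE of -2.98 ± 0.30 (adjusted p = 1.86e-06). Odc1, the rate-limiting ornithine decarboxylase, stood at 325, 247 and 329 CPM in RPF and 1446 to 1542 CPM in total RNA, a TE of -2.29 ± 0.14 (adjusted p = 3.59e-07). Azin1, which shields Odc1 from degradation, stood at 98.2, 38.7 and 98.02 CPM in RPF and 428 to 467 CPM in total RNA, a TE of -2.50 ± 0.45 (adjusted p = 2.58e-05). For each of these genes the RPF libraries lay below all total RNA libraries, and Azin1 was lowest in RPF replicate 2 (-2.20 without it). The synthases and catabolic enzymes did not share a sign. Sms, spermine synthase, had a TE of -1.61 and Sat1, the acetyltransferase that starts polyamine breakdown, -1.40, whereas Srm, spermidine synthase, was high at 1.15 ± 0.15 (1.00, under the 2-fold limit, without RPF replicate 2). Of the antizymes, whose synthesis needs a ribosomal frameshift, Oaz2 was low at -1.12 ± 0.05 (-0.34 per length) and Oaz1 was not called at 0.46 ± 0.31. Uniqueness was again limited: 7 of the 9 genes had under 90% unique 28-base coding windows, among them Amd1 with none and Odc1 with 13.4%, whereas Azin1 had 100%.

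The mRNAs known to be translated when eIF2α is phosphorylated had mixed TE in these unstressed cells. Of 11 listed genes 10 passed, and the median was -0.74 (-0.97 per length). Calls were low in 3 (30%) and high in 2 (20%), against 17.2% and 14.7% of all members. Atf4 (chr15:80255184-80257545), the central transcription factor of the ISR, stood at 224, 194 and 185 CPM in RPF and 776, 751, 710 and 695 CPM in total RNA. Its TE was -1.87 ± 0.09 (adjusted p = 4.47e-07) and all its windows were unique. Ppp1r15b, the constitutive eIF2α phosphatase subunit, stood at 86.2, 86.8 and 81.4 CPM in RPF and 193 to 209 CPM in total RNA, a TE of -1.24 ± 0.04 (adjusted p = 1.34e-06) that was -0.85 per length. Ibtk was low at -1.01 and was not called without RPF replicate 2 (-0.81). Ddit3, the proapoptotic factor CHOP, was scarce at 5.55 to 8.27 CPM in RPF and 10.8 to 13.1 CPM in total RNA, and its TE of -0.98 ± 0.20 (adjusted p = 0.00127) did not pass the 2-fold limit, but did without RPF replicate 2 (-1.13) and per length (-1.09). Atf5, with 6 annotated upstream AUGs, stood at 51.3, 72.8 and 39.4 CPM in RPF and 45.7 to 50.1 CPM in total RNA, a TE of 0.14 ± 0.26 (adjusted p = 0.469) with overlapping libraries. Cebpb, a transcription factor made in isoforms that its uORF sets, was on the other side: RPF was 217, 360 and 174 CPM, total RNA 33.0 to 37.4 CPM, and TE 2.82 ± 0.31 (adjusted p = 3.47e-06). Slc7a1, an arginine transporter, was high at 1.07 ± 0.05.

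Eif2s1 itself is expressed from the transgene in these cells, which holds the coding sequence but need not share the untranslated regions of the endogenous mRNA. RPF was 171, 86.8 and 182 CPM and total RNA 300.5 to 315 CPM. Its TE of -1.07 ± 0.34 (adjusted p = 0.00133) was called low, but was -0.81 and no longer called without RPF replicate 2, and -0.31 per length of the annotated transcript. Of the other subunits of eIF2 and of its exchange factor eIF2B, 1 of 7 was called, Eif2b2 at 1.24 ± 0.15. For the oncogenic background, Hras had a TE of -1.61 ± 0.09 and Tgfbr2 -1.88 ± 0.03. Counts of Hras need not come from the endogenous gene alone, and since the label and the cell-line list differ on whether Tgfbr2 is floxed or deleted, what its counts represent is not settled.

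**Figure D2:**
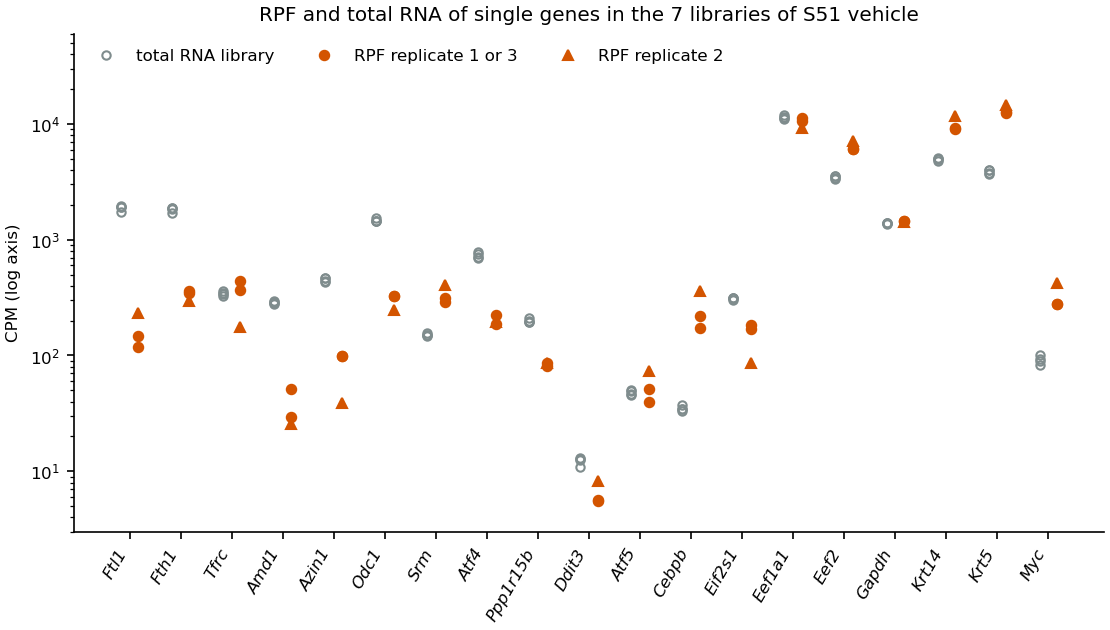
CPM on a log axis of 19 genes in the 7 libraries of S51 vehicle; grey rings are total RNA libraries and orange marks RPF libraries, with RPF replicate 2 as a triangle. RPF lies below total RNA for Ftl1, Fth1, Amd1, Azin1, Odc1, Atf4 and Ppp1r15b, close to it for Gapdh, and above it for Cebpb, Eef2, Krt14, Krt5 and Myc.

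Ribosomal protein mRNAs had calls in both directions. Of 47 measured large subunit genes 9 were high and 4 low (median 0.41), and of 33 small subunit genes 7 were high and 4 low (median 0.46). The shares high were 19.1% and 21.2%, against 14.7% of all members, and the shares low 8.51% and 12.1%, against 17.2%. Per length the medians were 0.25 and 0.17. The lowest were Rps23 (-2.14 ± 0.51, and -1.79 without RPF replicate 2), Rps12 (-1.91 ± 0.08), Rps2 (-1.57 ± 0.04) and Rpl14 (-1.47 ± 0.10). The highest were Rpl36al (4.58 ± 0.31), Rpl30 (3.42 ± 0.28), Rpl23a (2.96 ± 0.13) and Rps13 (1.63 ± 0.11). Ribosomal proteins are known for processed pseudogenes spread through the genome, and the measured genes reflected it: 47 of 47 large subunit and 32 of 33 small subunit genes had under 90% unique 28-base coding windows, against 16.3% of all members with a value. Rps23, Rps13 and Rpl23a had none. Values of single ribosomal protein genes are therefore uncertain, and the part of shared sequence in them was not tested.

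A TOP start, here a C followed by at least 4 pyrimidines, beginning within 5 bases of the annotated start on the sense strand, was annotated for 42.6% of large subunit, 39.4% of small subunit and 41.2% of the other listed TOP mRNAs, against 19.7% of all members. By this feature, genes with such a start (1683) had a median of 0.00 and those without (6860) -0.04. Among the 17 other TOP mRNAs, Eif3f alone was called (1.57 ± 0.16) and the median was -0.10. Eef1a1, the most abundant elongation factor, stood at 10570, 9262 and 11272 CPM in RPF and 11118 to 11811 CPM in total RNA, a TE of -0.14 ± 0.09 (adjusted p = 0.113). Eef2, which moves the ribosome along, had 0.89 ± 0.08, Pabpc1 -0.85 ± 0.06 and Tpt1 -0.64 ± 0.32, none past the 2-fold limit.

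Initiation factor lists had different medians by CPM but not per length, and the difference was not tested. None of the 11 measured eIF4F genes and regulators was high and 4 were low (36.4%, against 17.2% of all members). The low ones were the helicase Eif4a2 (-1.96 ± 0.24), the scaffold-like Eif4g2 (-1.36 ± 0.30), the repressor Eif4ebp2 (-1.20 ± 0.13) and the cap-binding protein Eif4e (-1.06 ± 0.33). The median of the 11 was -0.35, and -0.22 per length. Eif4a1, the main helicase of growing cells, was at 0.63 ± 0.20. Eif4e stood at 0.93 per length, and without RPF replicate 2 it was no longer called (-0.82). All 13 subunits of eIF3, the scaffold that carries the small subunit to mRNA, were measured. Of these 3 were high (23.1%) and none low, and the median of 0.76 was -0.20 per length. Cytosolic aminoacyl-tRNA synthetases, which charge tRNAs, had 3 of 20 high, led by Vars at 1.87 ± 0.20, a share near the 14.7% of all members. None was low, and the median of 0.55 became -0.08 per length.

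Centrosome components and zinc finger genes had low calls in 46.7% and 35.5% of measured members, against 17.2% of all. Of 34 centrosome genes, which encode large scaffold proteins and kinases of the microtubule-organizing center, 30 passed, 14 were low and none was high, with a median of -0.81 that went to -1.57 per length and -0.89 without RPF replicate 2. Nin, a scaffold that anchors microtubules, stood at 8.99, 11.9 and 10.3 CPM in RPF and 53.8 to 56.2 CPM in total RNA, a TE of -2.43 ± 0.12 (adjusted p = 2.37e-07). Plk4, the kinase that starts centriole duplication, was at -2.15 ± 0.34 and Cep350 at -2.12 ± 0.22. Here sequence identity was rare, since 29 of the 30 had at least 90% unique windows and their median was -0.75. Of the 384 Zfp genes with RPF and total RNA values 121 passed and 188 more had enough total RNA but too few footprints. Those 121 had 43 low and 12 high calls and a median of -0.69 (-0.67 per length), from Zfp91 (-5.41 ± 0.13) to Zfp593 (5.53 ± 0.16). Exons of another gene overlapped 42.3% of Zfp91 and 34.7% of Zfp593, so that reads at both ends of that range cannot be assigned with certainty.

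Genes of energy supply and protein turnover had medians above that of all genes. Of 84 measured subunits and assembly factors of the nuclear-encoded respiratory chain, 28 were high and 1 low. These shares were 33.3% and 1.19%, against 14.7% and 17.2% of all members. The median was 0.73, with 0.71 per length and 0.73 over the 45 genes with unique windows. The highest was Ndufb6, a subunit of complex I, at 148, 136 and 140 CPM in RPF and 23.3 to 28.9 CPM in total RNA (TE 2.47 ± 0.08, adjusted p = 1.46e-07). The assembly factor Ndufaf4 was the single low one at -1.34 ± 0.09, and turned to 0.57 per length. Mitochondrial ribosomal proteins had 12 of 78 high (15.4%, near the 14.7% of all members), none low and a median of 0.46 (0.50 per length). Mrps34 led them at 4.25 ± 0.25. Of 33 proteasome subunits 9 were high (27.3%) and none low, with a median of 0.66 (0.14 per length). Psmb5, the catalytic subunit that bortezomib binds, stood at 235, 242 and 237 CPM in RPF and 36.6 to 39.2 CPM in total RNA (TE 2.67 ± 0.03, adjusted p = 3.47e-08), with 21.0% unique 28-base windows. Of 14 glycolytic enzymes 3 were high (21.4%), Aldoa most at 1.28 ± 0.14, none was low and the median was 0.77 (0.45 per length). Gapdh, at 1430 to 1448 CPM in RPF and 1365 to 1396 CPM in total RNA, sat at 0.06 ± 0.01.

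**Figure D3:**
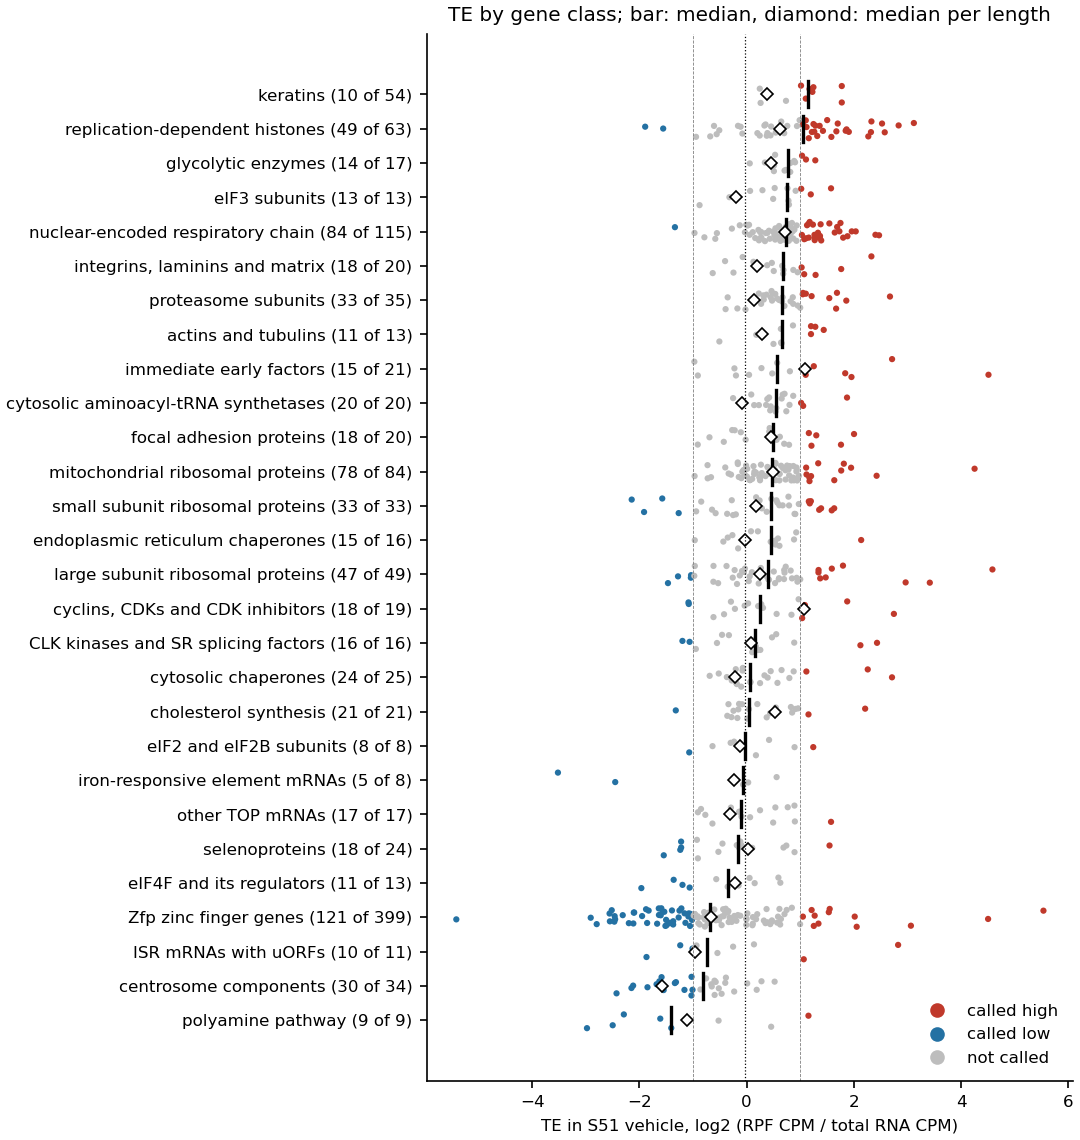
TE (log2) of the measured members of 28 lists, sorted by median; each point is a gene, coloured by its call, the bar is the list's median, the diamond its median per length, and the counts give members passing of those listed. Keratins, histones and energy genes lie right of 0 and polyamine, centrosome, ISR and Zfp genes left of it, while the diamonds of eIF3, proteasome and aminoacyl-tRNA synthetase genes return close to 0.

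The genes that mark a keratinocyte mostly had TE above the median of all genes. Keratins, the intermediate filaments of epithelia, had 10 of 54 listed members measured, with a median of 1.14 and 0.37 per length. Of these 7 were high (70%) and none low, against 14.7% and 17.2% of all members. A further 9 keratins had enough total RNA but too few footprints, and so could not be called. Krt5 (chr15:101707069-101712905), the basal keratin, stood at 12445, 14593 and 12673 CPM in RPF and 3660 to 4015 CPM in total RNA, a TE of 1.77 ± 0.08 (adjusted p = 2.14e-07), or 1.09 per length. Its partner Krt14 stood at 8947, 11772 and 9256 CPM in RPF and 4812 to 5055 CPM in total RNA, a TE of 1.01 ± 0.13 that was 0.88 without RPF replicate 2 and 0.19 per length. Krt19, a keratin of simple and progenitor epithelium, was at 1.77 ± 0.14. Of 18 integrin, laminin and matrix genes 5 were high (27.8%) and none low (median 0.67), and 2 more had enough total RNA but too few footprints. The hemidesmosome pair split: Itgb4 was high at 1.76 ± 0.22 while its partner Itga6 was at -0.63 ± 0.09. Of 18 focal adhesion genes 5 were high (27.8%) and none low (median 0.49). Zyx, an actin-binding adaptor, stood at 734, 1094 and 673 CPM in RPF and 203 to 220 CPM in total RNA (TE 2.0 ± 0.22). Ptk2, the focal adhesion kinase, stood at -0.91 ± 0.03. Of 11 actins and tubulins 4 were high (36.4%), among them Actg1 at 1.44 ± 0.06, whose coding sequence had no unique 28-base window.

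Histones had high calls in 25 of 49 measured genes, and most regulators of growth and the cell cycle were not called. These replication-dependent histone genes, whose mRNAs lack a poly(A) tail, had 2 low calls and a median of 1.05 (0.63 per length, and 0.26 centred within bins of GC content). H2ac8 led them at 3.12 ± 0.22 and H2bc6 was lowest at -1.89 ± 0.11 (0.00 per length). Histone genes are near-identical copies, and 47 of the 49 had under 90% unique 28-base windows. Immediate early factors, transcription factors induced by growth signals, were high in 6 of 15 (40%) with none low. Their median was 0.57, with 1.10 per length and -0.06 centred within bins of GC content, and all 15 had unique windows. Another 4 listed factors had enough total RNA but too few footprints, and so could not be called. Myc stood at 280, 425 and 278 CPM in RPF and 82.5 to 101 CPM in total RNA, a TE of 1.84 ± 0.21 (adjusted p = 6.46e-06). Fosl1, a subunit of AP-1, reached 4.51 ± 0.24, with 67.7% of its exons overlapping another gene. Of 18 cyclin, CDK and inhibitor genes 4 were high (22.2%) and 2 low (11.1%), against 14.7% and 17.2% of all members. Among the high were Cdkn2a at 2.75 ± 0.28, Cdkn1a at 1.88 ± 0.26 and Ccnd1 at 1.09 ± 0.27 (0.78 without RPF replicate 2). The low were Ccne2 at -1.08 ± 0.65 (-0.78 and not called without RPF replicate 2) and Cdk6 at -1.08 ± 0.05. Cdk6 turned to 1.49 and Ccnd1 to 2.09 per length.

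Among lists of folding and lipid genes, 6.67% to 12.5% of members were high and at most 4.76% low, against 14.7% and 17.2% of all. Cytosolic chaperones had a median of 0.07 with 3 of 24 high, Bag3 at 2.71 ± 0.23 and Hspb1 at 2.26 ± 0.20 among them, while Hspa8 was at -0.08 ± 0.13. Of 15 endoplasmic reticulum chaperones 1 was high (Ppib at 2.14 ± 0.07, with 54.2% exon overlap) and the median was 0.45 (-0.03 per length). Cholesterol synthesis genes had a median of 0.04, with Dhcr7, the last enzyme of the pathway, at 2.21 ± 0.13 and the sterol sensor partner Insig1 at -1.32 ± 0.18. CLK kinases and SR splicing factors were spread from Clk4 at -1.20 ± 0.43 to Srsf4 at 2.43 ± 0.12 (median 0.15), with 12.5% high and 12.5% low. Of 18 selenoproteins, which recode UGA as selenocysteine, 4 were low (22.2%) and 1 high (5.56%), with a median of -0.16. Selenot went from -1.54 to 0.14 per length.

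At the edges, by the rule of at least 50 counts in each library and no overlap between RPF and total RNA, the lowest included Ccng1, a p53 target (-4.0 ± 0.44), Tcf20, a nuclear regulator (-3.81 ± 0.02), Ftl1, 2610507B11Rik (-3.36 ± 0.08), Cdk2ap1 (-3.17 ± 0.23), the hedgehog transducer Smo (-3.02 ± 0.33), Amd1, the palmitoyltransferase Zdhhc3 (-2.97 ± 0.10) and the kinase Uhmk1 (-2.90 ± 0.19), with adjusted p of 2.57e-06 or less. The highest included the histone H2aw (8.21 ± 0.11), the spliceosomal Snrpf (4.92 ± 0.12), Phlda1 (4.91 ± 0.37), Atn1 (4.62 ± 0.29), Adnp (4.61 ± 0.16), Rpl36al, Fosl1, Mrps34 and the histone methyltransferase Setd1b (4.03 ± 0.31). H2aw stood at 679 to 835 CPM in RPF and 2.22 to 2.73 CPM in total RNA. Outside this rule, and chosen after its value was seen, Hmga1 had the lowest TE of all members (-5.65). Exon overlap with another gene was more frequent at the high edge: more than 10% of exon bases were shared in 27 of the 100 highest and 11 of the 100 lowest genes, against 9.39% of all members, and in H2aw the share was 100%, in Adnp 86.1% and in Snrpf 84.5%. Under 90% unique coding windows were found in 31 of the 100 lowest and 22 of the 100 highest, against 16.3% of all, with none unique in Cdk2ap1. The part of overlap and shared sequence in these values was not tested.

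TE followed features of the transcript across genes. These are rank correlations over 8543 members with an annotated coding sequence (8533 for upstream AUGs), given as descriptions, since genes share libraries. Coding GC content had a rho of 0.43 with TE, and the median rose from -0.66 in the quintile of genes with the least GC to 0.61 in that with the most. The slope differed between libraries: RPF replicate 2 alone gave a rho of 0.62 with medians from -1.26 to 0.98, and RPF replicates 1 and 3 gave 0.35 and 0.30. Without RPF replicate 2 the medians ran from -0.48 to 0.43. Length of the 3′ UTR had a rho of -0.40, with medians from 0.53 for the shortest quintile to -0.59 for the longest, and per length this relation was gone (rho 0.05, medians -0.03 and 0.16). Coding length did the reverse, at -0.09 by CPM and -0.44 per length.

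Upstream AUGs ran with lower TE in each RPF replicate. Members without one (4644) had a median TE of 0.19, those with a single one (1836) -0.19, and those with 4 or more (772) -0.55, with 10.1%, 21.0% and 33.8% called low (17.2% over all members). The rho with the number of upstream AUGs was -0.26, between -0.28 and -0.21 in single RPF replicates, and -0.21 per length. Within each quintile of coding GC content genes with an upstream AUG had the lower median, -0.92 against -0.42 in the lowest quintile and 0.38 against 0.77 in the highest. The same held within each quintile of 5′ UTR length, from -0.06 against 0.26 among the shortest to -0.44 against 0.04 among the longest. Dhcr7, with 7 annotated upstream AUGs, and Srsf4, with 12, are members that were high all the same.

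**Figure D4:**
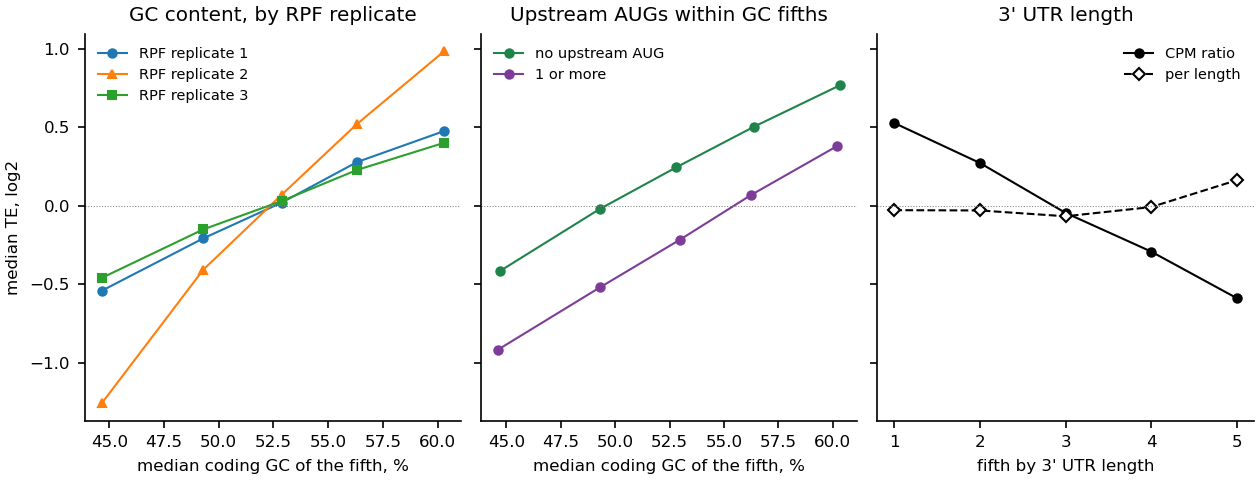
Median TE (log2) in quintiles of genes: by coding GC content for each RPF replicate (left), by coding GC content for genes with and without an upstream AUG (middle), and by 3′ UTR length for the CPM ratio and per length (right). RPF replicate 2 rises from -1.26 to 0.98 where replicates 1 and 3 rise less steeply, genes with an upstream AUG lie below the others in all quintiles, and the fall with 3′ UTR length is absent per length.

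In the ISR-null S51A cells no gene's TE was called different. Of 8321 genes with at least 10 counts in all 15 vehicle libraries, 0 were called higher and 0 lower (0% each way) at an adjusted p below 0.05 and 1.5-fold by edgeR's quasi-likelihood test of the difference. An unadjusted p below 0.05 was seen for 892 genes (384 higher and 508 lower in S51A), the lowest adjusted p was 0.106, and DESeq2 called 8 higher and 5 lower. Across genes TE in the 2 lines had a Pearson r of 0.98 and a Spearman rho of 0.97, and the median absolute difference was 0.15. Of genes high in S51 76.2% were high in S51A and of genes low in S51 82.1% were low, and no gene was high in one line and low in the other. The genes with known brakes had these TEs side by side, S51 from the fit of 7 libraries and S51A from that of 15: Atf4 was at -1.87 in S51 and -1.89 in S51A, Ppp1r15b at -1.24 and -1.65, Fth1 at -2.45 and -2.38, Ftl1 at -3.52 and -3.91, and Odc1 at -2.29 and -1.98. The largest differences among named genes were in Setd1b (-1.14, adjusted p = 0.391), Azin1 (1.11, adjusted p = 0.18), H2aw (-0.85, adjusted p = 0.18) and Eif2s1 (0.78, adjusted p = 0.406). Eif2s1 is the gene that was replaced in both lines, and its TE was -0.29 in S51A. These p-values do not show that the lines were alike, and without S51 RPF replicate 3 the test called 22 genes higher and 18 lower, without S51 RPF replicate 2 it called 4 and 2, without S51 RPF replicate 1 it called 1 and 0, and without S51A RPF replicate 1 it called 1 and 1.

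**Figure D5:**
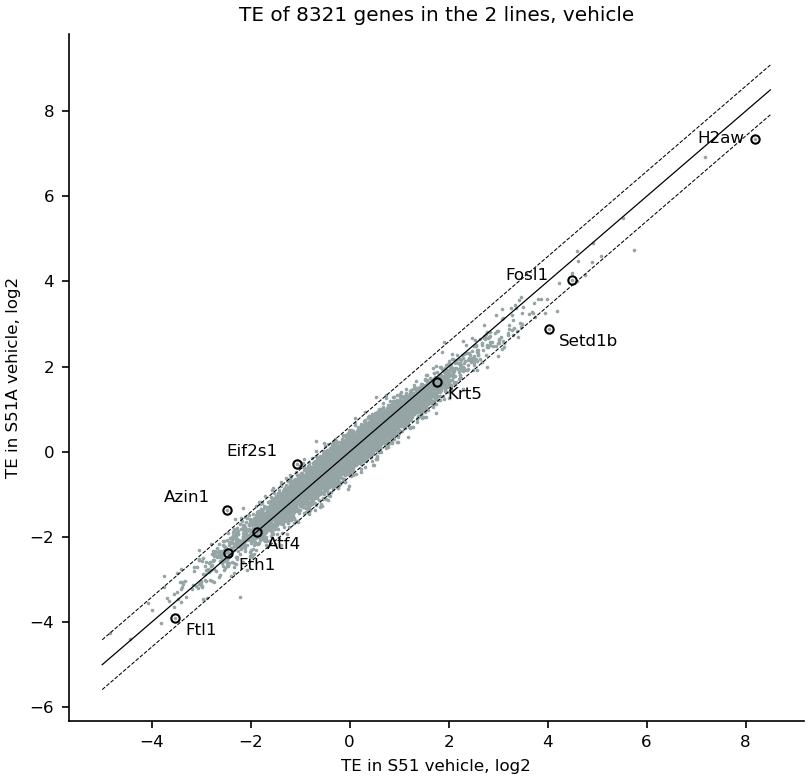
TE (log2) of 8321 genes in S51 vehicle (horizontal) and S51A vehicle (vertical); the solid line marks equal TE and the dashed lines 1.5-fold either way. Genes follow the line over the whole range, with Azin1 and Eif2s1 above the upper dashed line and Setd1b and H2aw below the lower one, none called.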

How the data were processed

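RPFs and total RNA of the same polysome lysates were used. The deposited counts were made by the authors: reads were trimmed with FastX, aligned to mm10 with bowtie2 (featureCounts and DESeq2 are also named in the submitters' processing notes), RPFs were counted with plastid in coding sequences without the first 15 and last 5 codons, and column names tell of rRNA removal, repeat masking, marked duplicates and uniquely mapped reads. The feature counted for total RNA and tool versions are not given in the sources used here. Total RNA holds merged repeat runs.

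From the counts, TMM-scaled CPM, edgeR 4.0.16 (R 4.3.3) quasi-likelihood tests with Benjamini-Hochberg adjustment over all genes passing 10 counts in each library, and DESeq2 1.42.0 as an alternative, were computed. In the comparison with S51A, 15 libraries were fitted with 1 coefficient per group. Gene lengths, UTRs, upstream AUGs, exon overlaps and window uniqueness (28-base coding windows, 100-base exon windows) came from RefSeq on GRCm38.p6, matched by gene ID for 8543 members. In data simulated for S51 vehicle TE over 8551 genes, 97.0% of genes changed 2.5-fold and 64.2% of those changed 1.5-fold passed the adjusted p. That setting was unlike the data: 8351 genes were left unchanged and counts were drawn independently. In the data 74.4% of genes passed the adjusted p and RPF replicate 2 had a shift with GC content. The simulated shares therefore do not give the power in these libraries. Members and gene lists were chosen with earlier results of these data known. Genes named were the 10 highest and lowest called with at least 50 counts in each library and no overlap, key genes fixed in a list, and the highest and lowest of each list; some of these are not reported here. Counting intervals cover counting error only.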

Additional observations from a re-analysis of the deposited data

Results flagged for a closer look

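Within the 4 total RNA libraries of S51 vehicle, 11 of 98 named genes (11.2%) had a library whose gap to its nearest neighbour took up most of the group's range by Dixon's test. Chance gives about 1 in 20. Replicate 1 stood apart for Eif2s1 at 300.5 CPM, Krt80 at 17.6, Zyx at 220.3 and Ppib at 90.2, replicate 2 for Cdk2ap1 at 255, Odc1 at 1542 and Psmb5 at 39.2, replicate 3 for Ndufaf4 at 108 and Pard6a at 6.72, and replicate 4 for Ftl1 at 1738 and Mdh1 at 115. Groups of 3 RPF libraries were too small for that test.

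Outside the members, 7 genes had at least 10 RPF counts in each of the 3 libraries and no total RNA count in any of the 4: Pdcd2, Ccdc22, Pus3, Pdf, Exosc6, Nme3 and Dchs1. Exosc6, a subunit of the RNA exosome, had 322, 534 and 384 RPF counts, and Pdcd2 had 190, 159 and 264. Across the 24 annotated genes with RPF counts and too little total RNA, more than 10% of exon bases overlapped another gene in 8.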

How the results depend on the processing

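Numbers of high and low calls stayed within 1.5 times of 1261 and 1467 under DESeq2, both other scalings, the replicate block, all 31 libraries, TE per length or centred within GC bins, and genes without exon overlap (862 and 1028 of 5992) or with unique windows (1019 and 1179 of 7099), the last 3 chosen after seeing the data. With at least 50 counts in every library they were 688 and 812 of 5376 genes, with edgeR's default filter 2266 were low, and at a 1.5-fold limit 2285 and 2449. Leaving out single libraries gave 1066 to 1394 high and 1389 to 1602 low. Library sizes alone moved the median of all genes from -0.03 to -0.16.

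By the study's methods RPF and total RNA came from the same lysates, though nothing states that equal replicate numbers mark one lysate, and the deviations of same-numbered libraries did not pair (r of -0.03, -0.09 and 0.11), nor did each sample correlate best with its own number. The replicate block gave 1247 high and 1518 low.

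For the difference between lines DESeq2 called 8 higher and 5 lower, all 31 libraries 5 and 2, and leaving out single libraries 0 to 22 higher and 0 to 18 lower. Of 30 lists, 21 had medians above that of all genes, and 18 to 24 did under the alternatives (18 of 29 with at least 50 counts, 18 of 23 with unique windows).

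The rho with GC content was -0.0053 after centring within GC bins, by construction, and 0.62 in RPF replicate 2 alone (0.33 to 0.50 without single libraries). For 3′ UTR length it was 0.047 per length, -0.35 with edgeR's default filter, -0.36 within GC bins and -0.37 in RPF replicate 2 alone (-0.41 to -0.40 without single libraries). For upstream AUGs it was -0.20 with at least 50 counts, and -0.21 both per length and in RPF replicate 2 alone (-0.27 to -0.24). Of the 98 genes named by rule, 3 reversed per length: H2bc6 to 0.0012, Selenot to 0.14 and Ndufaf4 to 0.57. Outside these 98, the list members Cdk6 and Eif4e also changed sign per length, as given above. Among all named-gene values under alternatives 1792 kept their call, 42 gained and 35 lost it. RPF libraries held 2036482 to 3995041 counts, which limits the TE of scarce mRNAs.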
